A study of Gallus gallus with 9 samples.

Results

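In the livers of 9 broilers, 16 of 38439 probe sets were high in some birds and low in the others, with nothing between. Broilers are chickens bred for meat; these were ROSS308 birds, slaughtered at 35 days, and 1 Affymetrix chicken array was run per liver. The control group of 4 birds ate a standard diet, and the Se-yeast group of 5 birds ate that diet with selenized yeast that added 0.5 mg of selenium per kg. The submitters had left out 1 further control sample for its quality. The labels give no sex, family or genotype, and no batch. The livers were frozen after slaughter, and the labels call the birds biological replicates. A probe set was taken as switching when the 9 values of log2(signal + 16), sorted, held a gap of 2.5 or more between neighbours, with at least 2 birds on each side and a mean of 9 or more on the high side. A gap of 2.5 is a 5.66-fold step on that scale, and a mean of 9 is a signal of 496. The diet played no part in the rule. The measured values themselves chose the probe sets, so their gaps are a description and are not tested.

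Each probe set is a group of short oligonucleotides that match 1 stretch of a transcript, and probe sets of the same gene can match different stretches. Identifiers that end in _s_at mark probes shared by several transcripts, and those that end in _x_at mark probes that can also bind unrelated ones. Background knowledge that bears on the genes found here is that major histocompatibility genes are among the most variable genes between individuals of a vertebrate species. Cytochrome P450 genes often stand side by side as close copies. The liver is the main site of fatty acid synthesis in birds.

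Largest gaps of this size were rare. Over all probe sets the median largest gap was 0.46 and the 99th percentile 1.61. Among the 4859 probe sets with at least 2 birds on each side and a high side of 9 or more, the median was 0.24, and 90 reached a gap of 1. The 16 switching probe sets spanned 2.53 to 6.55, with a median of 4.18. Just inside the threshold lay RHOG2 at 2.53, MHCY4 at 2.59 and ACSBG2 at 2.82. Of the named probe sets, those just outside were a second one of BLB1 at 2.42, FASN at 2.30 and GIMAP6 at 2.25. The unnamed Gga.16635.1.S1_at lay there too, at 2.26, with signals from 77.7 to 12593. An unnamed probe set, GgaAffx.20839.1.S1_s_at, had a gap of 2.97 and missed only the level, with a high side of 8.88. A further 17 probe sets with a gap of 2.5 or more and a high side of 9 or more had a single bird on 1 side, which was the high bird in 15 and the low bird in 2, and these are not described here.

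**Figure D1:**
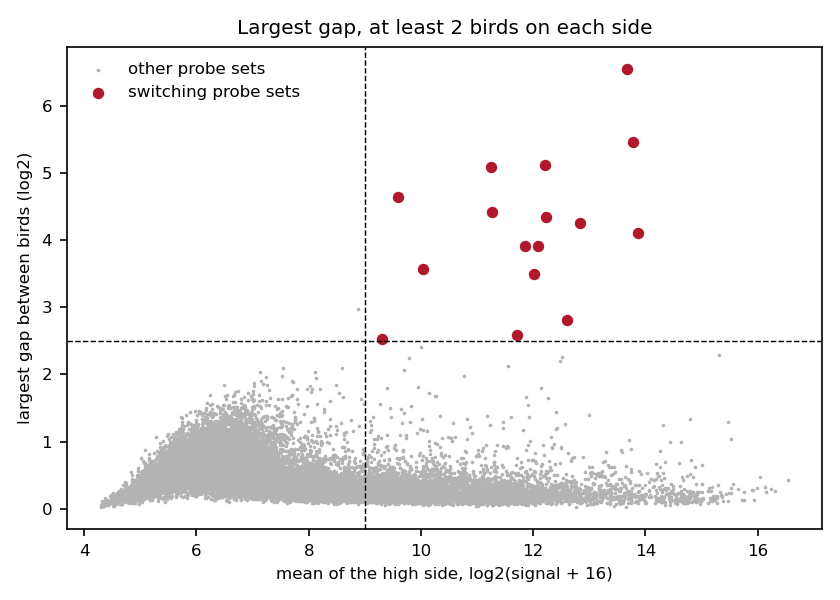
Largest gap between neighbouring birds (log2 units, vertical) against the mean of the high side (log2(signal + 16), horizontal) for every probe set with at least 2 birds on each side. Dashed lines mark the limits of 2.5 and 9; the 16 switching probe sets, in red, reach from 2.53 to 6.55, and 9 of them lie at 4 or more.

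Of the 16, 11 carried 1 gene symbol in the platform annotation and 5 were not named by it. The 11 belong to 10 genes, since SUCLG2 had 2. A symbol was missing for 31.2% of them and for 29.3% of all probe sets. Identifiers ending in _s_at or _x_at made up 37.5% of the 16 and 22.7% of all. The named genes lay on 8 chromosomes of the GRCg7b assembly, none of them Z or W, the sex chromosomes of birds.

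The low side was near or below the median of the array for most. In 8 of the 16 no low bird had a signal above 91.8, and in 13 none was above 251. The median signal of the 9 arrays lay between 100.5 and 125. Those with a low bird above 251 were SUCLG2 on its second probe set, MHCY4 and ACSBG2. The low birds of Gga.5846.1.S1_at, at 156 to 251, also all lay above the median of their arrays. Birds did not sort into high and low birds overall: control replicate 4 was high in 11 of the 16, Se-yeast replicate 3 in 10, control replicates 1 and 3 in 9 each, Se-yeast replicate 4 in 8, and the other four in 7 each.

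**Figure D2:**
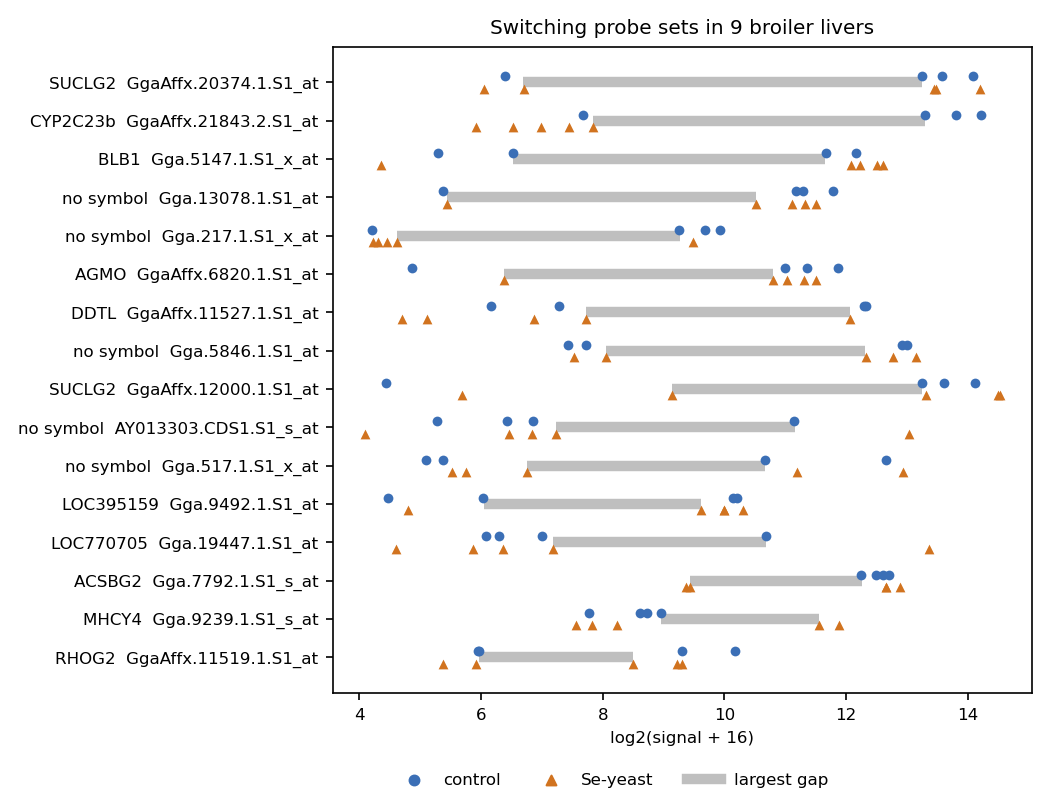
Level of each of the 16 switching probe sets (rows, ordered by gap) in each of the 9 birds, as log2(signal + 16). Circles are control birds, triangles Se-yeast birds, and the grey bar spans the largest gap; in 13 of the 16 rows both diets have birds on both sides.

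SUCLG2 encodes the subunit that makes succinyl-CoA synthetase of the citric acid cycle specific for GTP, and it gave the widest gap of all. On the probe set GgaAffx.20374.1.S1_at, control replicates 1 to 4 had signals of 68.6, 17417, 12161 and 9708, and Se-yeast replicates 1 to 5 had 18631, 11430, 11122, 87.7 and 50.5. On GgaAffx.12000.1.S1_at the signals were 17625, 5.71, 9641 and 12389 in control replicates 1 to 4 and 35.3, 545, 10112, 23052 and 23585 in Se-yeast replicates 1 to 5. The 3 birds that were low on the first were all high on the second, and the 3 birds that were low on the second were all high on the first.

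Control replicates 3 and 4 and Se-yeast replicate 3 were high on both SUCLG2 probe sets, and no bird was low on both. On the second probe set these 3 birds lay at 9641 to 12389, below the 17625 to 23585 of the birds high there alone. On the first probe set they lay at 9708 to 12161, below control replicate 2 and Se-yeast replicate 1 but on both sides of Se-yeast replicate 2. Se-yeast replicate 2, at 545 on the second probe set, stood apart from the other low birds at 5.71 and 35.3. A gap of 4.11 on that probe set therefore starts from this bird.

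The remaining probe sets of SUCLG2 did not switch. GgaAffx.20374.1.S1_s_at, whose identifier shares its stem with the first, had 6373, 6966, 5835 and 7038 in control replicates 1 to 4 and 6742, 8461, 7174, 6493 and 7214 in Se-yeast replicates 1 to 5, a 1.45-fold range. Gga.2557.1.S1_at ranged from 269 to 669. Neither was parted by the birds of either switching probe set. Other subunits of the enzyme, looked up after the values were seen, did not switch: SUCLG1, the partner subunit, ranged from 420.2 to 818, from 51.1 to 111 and from 7.84 to 73.4 on its probe sets, and SUCLA2, the ATP-specific counterpart of SUCLG2, from 177 to 379 and from 76.3 to 156.

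**Figure D3:**
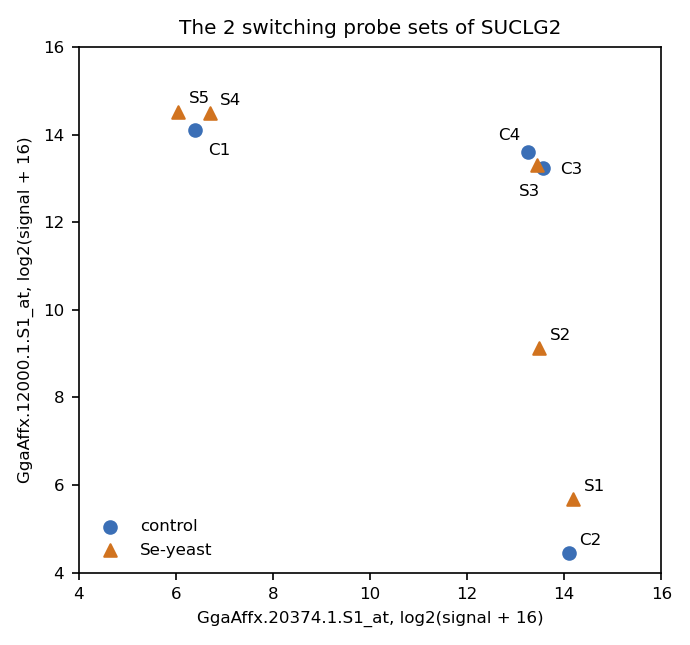
The 2 switching probe sets of SUCLG2 against each other, each as log2(signal + 16), 1 point per bird (C control, circles; S Se-yeast, triangles). There are 3 birds high on the first alone, 3 on the second alone, 3 on both and 0 on neither.

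CYP2C23b is a cytochrome P450, one of the haem enzymes that oxidise drugs, steroids and fatty acids. Its probe set GgaAffx.21843.2.S1_at had 19109, 189, 10034 and 14218 in control replicates 1 to 4 and 213, 111, 159, 44.1 and 76.0 in Se-yeast replicates 1 to 5. It was the only one of the 16 that was high in control birds and in no Se-yeast bird. The other probe set of the gene, GgaAffx.21843.2.S1_s_at, had 22326, 14569, 12613 and 15880 and then 15835, 34920, 13165, 28776 and 24862 in the same order. On that one, 2 of the 3 birds high on the first, control replicates 3 and 4, lay among the low and middle values, and the highest were Se-yeast replicates 2 and 4, so the groups of birds overlapped.

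CYP2C23a lies next to CYP2C23b on chromosome 6 with no protein-coding gene between them. Its probe set GgaAffx.21843.1.S1_s_at ranged from 19872 in Se-yeast replicate 2 to 39903 in Se-yeast replicate 4. Shared probes of such close copies cannot tell them apart, so a level on an _s_at probe set need not belong to 1 of them alone. Among the 68 probe sets of 43 genes whose symbol begins with CYP, CYP2C23b gave the only switch; the largest gap of the others that met the conditions on sides and level was 1.02, for CYP4B7.

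AGMO encodes alkylglycerol monooxygenase, the enzyme that cleaves the ether bond of alkylglycerols. Its only probe set, GgaAffx.6820.1.S1_at, had 2602, 2015, 13.0 and 3737 in control replicates 1 to 4 and 2900, 2054, 2521, 1757 and 66.7 in Se-yeast replicates 1 to 5. The unnamed probe set Gga.13078.1.S1_at had 3528, 2285, 25.6 and 2482, then 2907, 1453, 2567, 2199 and 27.3. Both were low in control replicate 3 and Se-yeast replicate 5 and in no other bird.

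LOC395159, for which RefSeq gives the synonym SERAF, lies on chromosome 2 as AGMO does, with 5 protein-coding genes between them. Its probe set had 1169, 1111, 50 and 6.14 in control replicates 1 to 4 and 1245, 772, 1011, 998 and 11.9 in Se-yeast replicates 1 to 5. The birds low on AGMO were low here too, together with control replicate 4, which had the highest AGMO signal. Neither gene had another probe set to compare.

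DDTL is related to D-dopachrome tautomerase, a small protein of the macrophage migration inhibitory factor family. GgaAffx.11527.1.S1_at had 4999, 55.5, 5140 and 139.8 in control replicates 1 to 4 and 101, 195, 18.8, 4273 and 10.1 in Se-yeast replicates 1 to 5, so 3 birds were high. Its partner GgaAffx.11527.1.S1_s_at had 19386, 22922, 20213 and 19809, then 25163, 16317, 17935, 18249 and 16448, a 1.54-fold range. The highest bird there, Se-yeast replicate 1, was low on the switching probe set.

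RHOG2 encodes a small GTPase, a protein that switches between a GTP-bound and a GDP-bound form. GgaAffx.11519.1.S1_at had 46.4, 46.0, 1136 and 618 in control replicates 1 to 4 and 618, 25.7, 344, 44.6 and 582 in Se-yeast replicates 1 to 5. The 5 high birds spanned 344 to 1136, and the 4 low birds lay at 25.7 to 46.4. Its other probe sets ranged from 1291 to 2006 and from 1019 to 1792, and on neither did the same birds separate.

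The chicken major histocompatibility complex lies on chromosome 16 in 2 parts, the B and the Y locus, and each gave a switch. BLB1 encodes a class II beta chain of the B locus, which presents peptides to helper T cells. Gga.5147.1.S1_x_at had 3214, 76.6, 23.4 and 4565 in control replicates 1 to 4 and 4.50, 5836, 4752, 6255 and 4317 in Se-yeast replicates 1 to 5. Control replicates 2 and 3 and Se-yeast replicate 1 were low.

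A second BLB1 probe set, Gga.5136.1.S1_x_at, parted the birds in the same way and missed the gap limit. It had 944, 119, 147 and 978 in control replicates 1 to 4, then 122, 923, 854, 1436 and 983 in the Se-yeast birds. The other BLB1 probe sets were not parted: Gga.13336.3.S1_a_at ranged from 21583 to 37310, Gga.13336.5.S1_x_at from 15263 to 31892 and Gga.13336.3.S1_x_at from 3113 to 7541. Se-yeast replicate 1, the lowest bird on the switching probe set, was the highest on Gga.13336.3.S1_a_at.

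MHCY4, of the Y locus, encodes a class I-like heavy chain. Gga.9239.1.S1_s_at had 378, 481, 409 and 202 in control replicates 1 to 4 and 173, 285, 3752, 212 and 2984 in Se-yeast replicates 1 to 5. Gga.9239.1.S1_x_at, which shares the stem of the identifier and is unnamed here, was highest in the same 2 birds, at 1036 and 1009 against 442 to 836 in the others, a smaller step. BLB1 and MHCY4 have 70 protein-coding genes between them and split the birds differently: both MHCY4-high birds were also BLB1-high, together with 4 birds low on MHCY4. The list of MHC and antigen presentation genes held 51 probe sets of 23 genes, of which these 2 switched.

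LOC770705 is an uncharacterised protein-coding gene on chromosome 9. Gga.19447.1.S1_at had 52.3, 112, 62.2 and 1622 in control replicates 1 to 4 and 8.48, 65.9, 129.8, 42.5 and 10504 in Se-yeast replicates 1 to 5. The unnamed AY013303.CDS1.S1_s_at was high in the same birds, with 2261 in control replicate 4, 8374 in Se-yeast replicate 5 and 1.01 to 134 elsewhere.

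Related probe sets told these 2 birds apart. The other LOC770705 probe set, Gga.19447.2.S1_s_at, was high in control replicate 4 alone, at 878, and stood at 84.2 in Se-yeast replicate 5, within the 47.5 to 122 of the rest. AY013303.CDS3.S1_s_at, of the same identifier stem as the unnamed one, was high in Se-yeast replicate 5 alone, at 1007, with control replicate 4 at 53.3 and the others at 8.38 to 89.6. AY013303.CDS2.S1_s_at ranged from 16 to 86.6 and set neither bird apart.

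ACSBG2, an acyl-CoA synthetase of the bubblegum family that activates long-chain fatty acids, differed from the others in its low side. Gga.7792.1.S1_s_at, the only probe set of the gene, had 4865, 6692, 5717 and 6181 in control replicates 1 to 4 and 6431, 7524, 6438, 677 and 642 in Se-yeast replicates 1 to 5. The 2 low birds were thus well above the median of their arrays, and the 7 high birds spanned only 4865 to 7524.

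Many other probe sets separated the same 2 birds. Among probe sets that reached 9 in some bird and were not themselves switching, 15 were lower in Se-yeast replicates 4 and 5 by at least 1 on the log2 scale, the lowest other bird against the higher of these 2, and 12 were higher by as much. For the 3 other splits that set 2 birds against 7, fewer probe sets were lower or higher in the 2 birds. In that order the counts were 1 and 3 (MHCY4), 0 and 0 (AGMO and its companion) and 0 and 0 (LOC770705 and its companion). Some genes had more than 1 probe set among the 15 and the 12. The following genes were picked from those after their values were seen, and the rest are not given. FASN, fatty acid synthase, had 33860, 31545, 43105 and 42350 in control replicates 1 to 4 and 54630, 49666, 36322, 6061 and 6409 in Se-yeast replicates 1 to 5 on Gga.8951.1.S1_at. Its other probe set, Gga.2448.1.S2_at, gave a smaller step, with 35026 to 65726 in 7 birds and 11908 and 14258 in Se-yeast replicates 4 and 5. HKDC1, a hexokinase, was at 3645 to 8195 in 7 birds and at 779 and 562 in these 2, and the desaturase SCD was at 1805 to 6658 against 605 and 526. ACACA was looked up as well and fell short of that margin. On Gga.1480.1.S1_at it was at 1051 in Se-yeast replicate 5, at 5299 in Se-yeast replicate 4 and at 7460 to 13939 in the others.

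In the opposite direction, CPT1A, which admits long-chain fatty acids to mitochondria for oxidation, was at 219 to 499 in 7 birds and at 2231 and 4012 in Se-yeast replicates 4 and 5. SLC22A5, the carnitine transporter, was at 1112 to 1720 in 7 birds and at 4700 and 6266 in these 2. A further CPT1A probe set, Gga.10294.1.S1_at, was dim and did not set these 2 birds apart. It had 116 in Se-yeast replicate 4, 2.6 in Se-yeast replicate 5 and 121 in control replicate 2. On the other probe sets given for these genes, all 4 control birds lay on the same side as the other 3 Se-yeast birds. Between the diets, FASN stood at -0.85 ± 0.61 (SE) on Gga.8951.1.S1_at and at -0.55 ± 0.43 on the other. CPT1A stood at 0.93 ± 0.71 on GgaAffx.20100.1.S1_at and at 0.66 ± 0.70 on Gga.10416.1.S1_s_at (limma, adjusted p = 0.999 for each of these values).

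The remaining unnamed probe sets each had a split of their own. Gga.217.1.S1_x_at had 2.45, 962, 803 and 599 in control replicates 1 to 4 and 8.60, 2.60, 697, 3.83 and 6.08 in Se-yeast replicates 1 to 5. Gga.5846.1.S1_at was high in 5 birds, at 5081 to 9064, and at 156 to 251 in the others. Gga.517.1.S1_x_at had high birds at 2 levels, control replicate 2 and Se-yeast replicate 4 at 1605 and 2325 and control replicate 3 and Se-yeast replicate 1 at 6423 and 7863, with the other birds at 18.0 to 91.8.

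For 6 of the 10 named genes, other probe sets were measured that did not switch, 11 in all, which gives 13 pairs with a switching probe set. Of these pairs 1 was parted by the birds in the same way, that of BLB1, and 12 overlapped. Over all tested probe sets of other genes, set against the same splits, 1.43% were parted in the same way. The overlapping probe sets had a highest over lowest signal of 1.45 to 18.5, the latter for LOC770705. The sides come from measured values, so this comparison is a description.

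**Figure D4:**
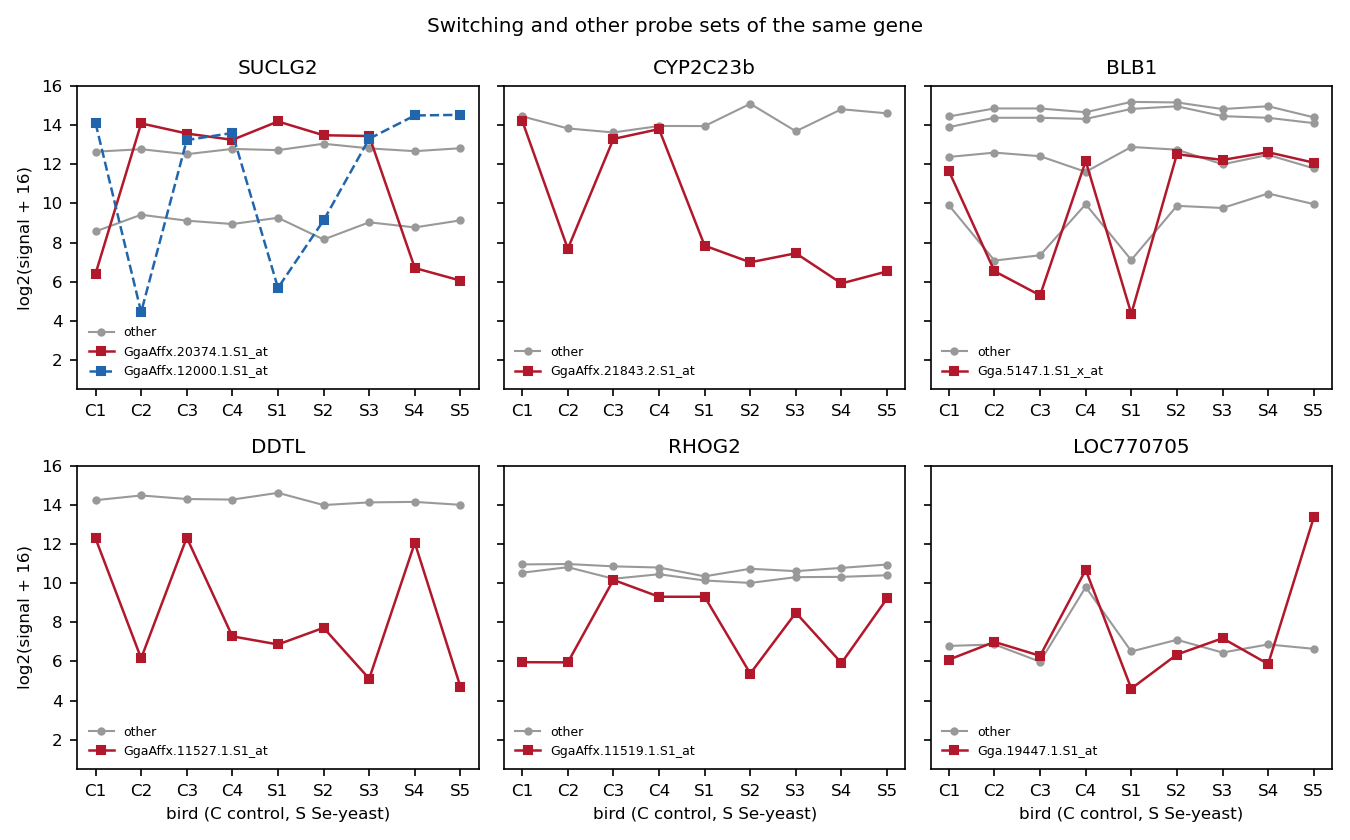
Level of the switching probe sets (red and blue squares) and of every other probe set of the same gene (grey) in each bird, as log2(signal + 16), for the 6 genes with more than 1 kind. Grey lines stay within a 2.77-fold range except for 1 line of BLB1, which falls in the same 3 birds as the red one, and that of LOC770705, which rises in control replicate 4 alone.

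In all, the 16 probe sets gave 14 different splits of the birds, and 2 splits were shared by 2 probe sets each. Genes next to the switching ones on the chromosome were compared with them, each by its brightest tested probe set. There were 212 comparisons with the nearest protein-coding genes measured, 10 on each side where available. Of these, 0 were parted in the same way and 5 in reverse, which is 2.36%. Over all tested probe sets the share parted in either direction was 3.76%. The count is near that share, so it is no result about the neighbours. AGMO and LOC395159 lie within each other's 10 neighbours, and their low birds differed by control replicate 4 alone. Except for cytochrome P450 and MHC genes, the lists compared held no switch among named probe sets. The lists went by gene symbol or by the chromosome of the gene. The 5 unnamed switching probe sets could therefore be on none of them, whatever they measure. They were glutathione transferases, immunoglobulin and T cell receptor symbols, haemoglobins, selenoproteins, solute carriers, ribosomal proteins, histones, zinc fingers, endogenous retrovirus and transposon genes, nuclear genes of the respiratory chain, ATP synthase and mitochondrial ribosome (symbols beginning NDUF, COX, ATP5, UQCR or MRP), and genes of chromosomes W and Z. Over all probe sets, 16 of the 4859 that met the conditions on sides and level switched, and several lists held few such probe sets. These were 0 for endogenous retrovirus and transposon genes, 1 for chromosome W, 2 each for haemoglobins and histones and 7 for glutathione transferases. The lack of a switch is therefore no result about these lists. SUCLG2, a citric acid cycle gene, is on none of the lists compared. GPX3, the secreted glutathione peroxidase, had the largest gap of the selenoproteins that met the other conditions, at 1.04.

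Markers showed liver on every array. The mean level of 9 measured hepatocyte genes, albumin among them, was 14.80 to 15.04 on the log2 scale in control birds. It was 15.09 to 15.53 in Se-yeast birds. The diets did not overlap on this mean, while 1.64% of all tested probe sets separated them so. None of the 9 genes passed in the diet comparison given below (limma, adjusted p = 0.999 for each). Markers of the pancreas lay at 4.68 to 6.24 and those of muscle at 5.58 to 6.53, around or below the filter level of 6.33. Of 208 pairs of a marker list and a switching probe set, 7 were parted by the same birds in either direction, or 3.37%, close to the share over all tested probe sets. The levels given here are means over each list in a bird, so single markers can go the other way. Red blood cell markers, 6 measured, were higher in the birds high on Gga.517.1.S1_x_at, at 9.77 to 10.77 against 8.75 to 9.43. T and NK cell markers, 8 measured, were higher in the birds low on the second SUCLG2 probe set, at 8.23 to 8.67 against 7.48 to 8.22, as were B and plasma cell markers, 6 measured, at 8.33 to 8.61 against 7.43 to 8.29. Endothelial markers, 5 measured, were higher in the birds low on the first SUCLG2 probe set, at 11.08 to 11.11 against 10.57 to 10.88. Adipose markers, 4 measured, were higher in the birds low on ACSBG2, at 7.87 and 8.16 against 7.42 to 7.84, and 3 muscle markers lower, at 5.58 and 5.78 against 5.92 to 6.53. The intestine and kidney list, 5 measured of which 3 passed the filter, was lower in the birds high on MHCY4, at 5.58 and 5.73 against 5.87 to 6.58. These levels too lay around or below the filter level. Their part in the switches was not tested. In such bulk samples, fewer cells of a type and less RNA per cell cannot be told apart.

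The diet comparison asks whether the switches followed the supplement. None of the 16 passed (limma, adjusted over all 23063 probe sets tested, 0.05), where 0.026% of all probe sets did, 0.0173% higher and 0.00867% lower in Se-yeast. At an unadjusted p under 0.05 there were 2 of the 16, against 4.67% of all. In none of them did the diets separate the birds fully, while 1.64% of all probe sets were so separated. The fold changes, Se-yeast minus control, were positive for 8 and negative for 8, with a median of 0.03 beside 0.02 over all probe sets. Their median size was 0.70 against 0.15, and 7 reached 1 in size, where 0.633% of all did. The standard errors ranged from 0.70 to 2.11, with a median of 1.42 against 0.23 over all probe sets. Probe sets chosen for a wide gap between birds have large folds and errors by that choice, so nothing is read from these sizes. Some, LOC395159 and RHOG2 among them, passed the filter on level only through their high birds.

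CYP2C23b came closest. Log2 levels averaged 12.25 ± 3.07 (SD) over the 4 control livers and 6.94 ± 0.76 (SD) over the 5 supplemented livers, a difference of -5.31 ± 1.05 (SE; limma adjusted p = 0.371). Control replicate 2, at a signal of 189, lay within the Se-yeast range of 44.1 to 213. Without that bird the difference was -6.83 and passed the threshold, but the diets then coincide with both sides of the gap that chose the probe set, so this is no test of the diet. The other probe set of the gene stood at 0.46 ± 0.27 (limma adjusted p = 0.999), in the opposite direction.

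Gga.217.1.S1_x_at was high in 3 control birds and 1 Se-yeast bird and stood at -2.85 ± 1.26 (limma adjusted p = 0.999). DDTL, high in 2 control birds and 1 Se-yeast bird, stood at -2.22 ± 1.54. BLB1, high in 2 control and 4 Se-yeast birds, stood at 1.84 ± 1.77, and LOC395159, high in the same numbers of birds, at 1.23 ± 1.30. Those that set Se-yeast birds apart from all controls were MHCY4, high in 2 of 5 Se-yeast birds, at 0.89 ± 0.83, and ACSBG2, low in 2 of 5, at -1.11 ± 0.70. Leaving out single birds moved the values of these named genes by over 1.5 times, and for each gene more than 1 bird did so. The lowest and highest values follow. BLB1 stood at 0.64 without control replicate 3 and at 3.44 without Se-yeast replicate 1, and LOC395159 at 0.14 without control replicate 4 and at 2.26 without Se-yeast replicate 5. DDTL stood at -1.28 without control replicate 3 and at -3.41 without Se-yeast replicate 4. MHCY4 stood at 0.28 without Se-yeast replicate 3 and at 1.36 without Se-yeast replicate 1, and ACSBG2 ranged from -1.48 without Se-yeast replicate 2 to -0.60 without Se-yeast replicate 5, with -0.62 without Se-yeast replicate 4. The SUCLG2 probe sets were each high in 3 control and 3 Se-yeast birds and stood at -1.06 ± 1.93 and 0.08 ± 2.11.

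**Figure D5:**
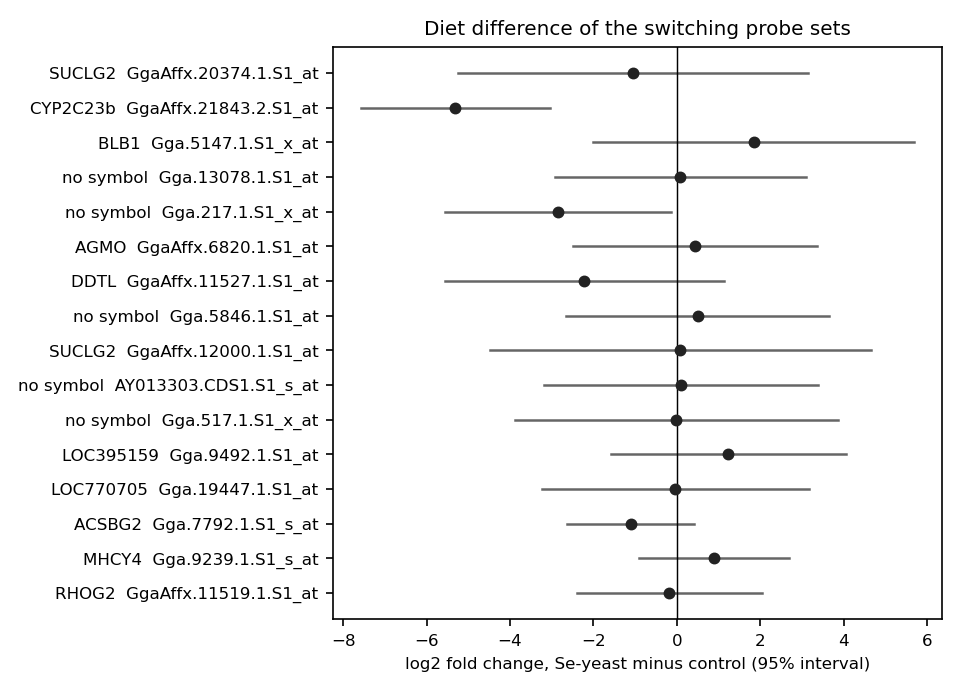
Log2 fold change (Se-yeast minus control, log2(signal + 16) scale) of the 16 switching probe sets with its 95% interval from limma. The intervals of 14 include 0; those of CYP2C23b and Gga.217.1.S1_x_at do not, and neither passed after adjustment over all probe sets. Gga.217.1.S1_x_at passed the filter on level only through its high birds.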

How the data were processed

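The values deposited by the authors are MAS5 signal intensities per probe set on a linear scale, 1 array per bird; MAS5 is named per the submitters' processing notes, without a version. The trimmed mean of every array was 500, so levels are relative to the rest of the array. The table had 38535 rows, of which 96 array controls were left out. A constant of 16 was added before log2, which pulls the differences of dim probe sets towards 0. Whether a probe set was detected was not judged. Switching probe sets were found with Python 3.11.15. The upper part of the probe sets by mean level, from the 40th percentile (6.33, or 64.7 in signal), entered the fit by limma 3.58.1 under R 4.3.3 (lmFit, and eBayes with a trend), two-sided, with Benjamini-Hochberg adjustment over all 23063 tested; all 16 switching probe sets were among them. Both scripts were tested on simulated data. Symbols come from the platform annotation, for 27168 probe sets with 1 symbol; chromosomes and gene order come from RefSeq for GRCg7b, with no coordinates. The members and lists were chosen with earlier results of these data known. Named are the 11 members with a symbol, their genes' other probe sets, genes just outside the limit and those said to be picked after their values were seen; the 5 unnamed are given by identifier. Samples are separate birds per the labels. The number of arrays limits the precision. Equal replicate numbers do not pair the birds. No sequences were printed, since no probe or transcript sequence was used here. Alternatives were other constants, normalisations, filters and limits, a replicate block, and leaving out each bird.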

Additional observations from a re-analysis of the deposited data

Results flagged for a closer look

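Within a diet group, 1 bird stood far from the rest in 11 cases over the 32 groups examined, each measured as the gap to the nearest bird over the range of the group. Chance gives about 1 in 20 groups, and the rule that chose these probe sets favours such gaps, so the number is a description. A single control bird was low for the first SUCLG2 probe set (replicate 1, 0.890), the second (replicate 2, 0.910), CYP2C23b (replicate 2, 0.858), AGMO (replicate 3, 0.874), Gga.13078.1.S1_at (replicate 3, 0.903) and Gga.217.1.S1_x_at (replicate 1, 0.883). A single Se-yeast bird was low for BLB1 (replicate 1, 0.935), AGMO (replicate 5, 0.860), Gga.13078.1.S1_at (replicate 5, 0.837) and LOC395159 (replicate 5, 0.877), and high for Gga.217.1.S1_x_at (replicate 3, 0.923).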

How the results depend on the processing

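The count of 16 switching probe sets was 17 with a constant of 1 and 14 with 64, 15 after quantile normalisation and 16 after median centring. It was 23 at a gap of 2 and 13 at a gap of 3, 14 with a high side of 10 or more, and 10 with at least 3 birds on each side. Leaving out 1 bird gave 10 (without Se-yeast replicate 5) to 18 (without Se-yeast replicate 3); the 6 lost without Se-yeast replicate 5 had it on a side of 2, which the rule then no longer admits. Diet calls over all probe sets, 6, fell to 3 without the intensity trend, and leaving out 1 bird gave 3 (without control replicate 3 or Se-yeast replicate 1, 3 or 4) to 7 (without Se-yeast replicate 2). Among those of the 16 that stayed in each fit there were 0 to 1 calls, the 1 being CYP2C23b without control replicate 2, where the diets match the sides that chose it. The count of 1 other probe set parted in the same way as its gene's switch was 0 with a constant of 1, where that BLB1 probe set itself met the rule.

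Equal replicate numbers are not tied to a shared source by the labels, and deviations of same-numbered birds correlated at -0.106, 0.0375, 0.024 and -0.00236. A replicate block gave 3 diet calls over all probe sets and brought Gga.5846.1.S1_at to 0.00. It turned the sign of the first SUCLG2 probe set (0.12), the second (-0.69), AY013303.CDS1.S1_s_at (-1.27) and Gga.517.1.S1_x_at (0.66). Only the Se-yeast group has a replicate 5, so the block sets that bird aside from the diet difference. The folds of the 16 are the same as without Se-yeast replicate 5, so these turns of sign do not bear on pairing. The sign also turned with a constant of 1 for AY013303.CDS1.S1_s_at (-0.33) and Gga.517.1.S1_x_at (0.11), and with 64 for the second SUCLG2 probe set (-0.13) and LOC770705 (0.17). Leaving out 1 bird moved the diet difference across 0 for 9: from -2.86 to 0.12 for the first SUCLG2 probe set, -2.22 to 1.52 for the second, -1.43 to 1.21 for Gga.13078.1.S1_at, -1.21 to 1.39 for AGMO, -0.45 to 1.41 for Gga.5846.1.S1_at, -1.27 to 1.35 for AY013303.CDS1.S1_s_at, -1.14 to 1.39 for Gga.517.1.S1_x_at, -1.51 to 1.02 for LOC770705 and -0.81 to 0.59 for RHOG2. Apart from these and CYP2C23b without control replicate 2, direction and call stayed as reported, in 223 of 266 values, though sizes moved, as given in the report for BLB1, LOC395159, DDTL, MHCY4 and ACSBG2. The cause was not tested.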
